A study of Mus musculus with 6 samples.

Results

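Gap junction connexins are described here through 4 genes, Gja1, Gjb2, Gjb5 and Gjb6, taken by symbol, with earlier results of these data known. All 4 were found among the 55481 genes of the table, each on 1 row. Bulk RNA-seq had been made of cells sorted out of mouse skin squamous cell carcinomas that were induced by DMBA, a mutagen, with repeated TPA, a phorbol ester. One population, termed tumour stem-like by the submitters, was high for the integrin chain Itga6 and positive for the T cell co-stimulator CD80 (Itga6hi CD80pos). The other, termed differentiated cancer cells, was low for Itga6 and CD80 negative (Itga6low CD80neg). Paired values below give Itga6hi CD80pos replicates 1 and 2 first, then Itga6low CD80neg replicates 1 and 2. Each population had 2 libraries, and another labelled group, Itga6 high and CD80 negative, was not analysed here. Strain, age, the number of animals and further gates were not given in the sources used here, so the p-values measure the spread between these libraries, which may be technical.

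Connexins are membrane proteins that assemble in sixes into a hemichannel, and hemichannels of adjoining cells dock to form a gap junction channel that passes ions and small metabolites. Gja1 encodes Cx43, the most widely expressed connexin, which is found in basal and spinous keratinocytes and also in fibroblasts, vessel walls and other tissues. Gjb2 (Cx26) and Gjb6 (Cx30) are sister genes known for inherited deafness and for skin disorders of thickened epidermis, and Gjb2 is induced in wounded and hyperproliferative skin. Gjb5 (Cx31.1) is a connexin of stratified epithelium.

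The levels are TPM, transcript abundances corrected for length and set to one total per library, so the depth behind them is unknown. Itga6 measured 178 and 339 TPM in Itga6hi CD80pos and at 1.496 and 1.65 TPM in Itga6low CD80neg, and Cd80 at 6.24 and 1.89 TPM versus 0.642 and 0.563 TPM. The libraries differed in makeup. Red cell genes summed to 185 and 62.5 TPM in Itga6hi CD80pos and to 711095 and 504900 TPM in Itga6low CD80neg. Fibroblast genes summed to 58.5 and 234 TPM versus 12540 and 9498 TPM, and all 15 were lower in Itga6hi CD80pos by limma at an adjusted p under 0.05. Epithelial genes summed to 54846 and 56857 TPM versus 2561 and 9460 TPM, with 15 of 18 higher and none of the 18 at 0 in any library. Spinous and granular layer genes, which mark differentiated keratinocytes, summed to 8829 and 8528 TPM versus 953 and 3611 TPM, mostly from Krtdap, Krt1 and Krt10. Of the 10, 2 were called higher, Krt10 and Tgm3, and 1 lower, Lor, the cornified envelope protein loricrin. Lor measured 1.45 and 4.17 TPM versus 44.7 and 56.1 TPM, and Tgm3 131 and 43.8 TPM versus 19.2 and 17.0 TPM. Krt10, Tgm3 and Lor were named after their values were seen. Under 4 other scalings 0 were higher and 1 lower, with list medians of -0.29 to -0.17. The scaling without keratin genes left Krt1 and Krt10 out of the list. Beside the counts of these lists, 57.0% of all tested genes were called higher and 9.48% lower on deposited TPM. Under the other scalings 7.72% to 13.1% were higher and 10.8% to 11.9% lower. Fewer cells of a type and less RNA per cell cannot be told apart in such libraries, and the part of these differences in the connexin results was not tested.

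All 4 connexins had higher TPM in both Itga6hi CD80pos libraries than in either Itga6low CD80neg library, and 3 of them, Gjb2, Gja1 and Gjb5, were called higher. That share has to be read against the whole table: of 13474 genes tested with limma on log2(TPM + 1), 57.0% were called higher and 9.48% lower, and 73.5% had higher values in both Itga6hi CD80pos libraries without overlap. Over all tested genes the log2 fold change had a median of 1.27, and over the 4 connexins of 1.81. Gjb2 and Gja1 stood above the median of all genes, and Gjb5 lay at it.

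**Figure D1:**
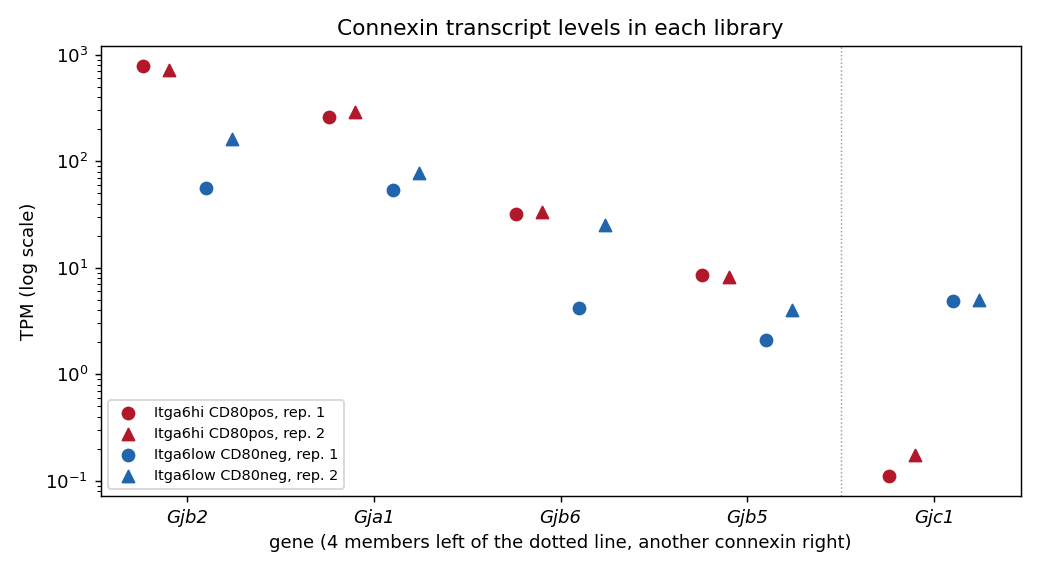
TPM (log axis) of the 4 connexins and of Gjc1 in each library. Each point is 1 library, red for Itga6hi CD80pos and blue for Itga6low CD80neg; Gjb6 of Itga6low CD80neg replicate 2, at 25.0 TPM, comes close to the red points, and Gjc1 alone of the genes shown is higher in blue.

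Gjb2 was the most abundant of the 4 connexins in all 4 libraries. It lies on chromosome 14, 57098600 to 57104702, minus strand (GRCm38, GENCODE M21), with 1 annotated transcript and no overlapping gene. Its level was 778 and 721 TPM in Itga6hi CD80pos and 56.2 and 161 TPM in Itga6low CD80neg. The first pair lay close together, the other pair differed widely, and the groups did not overlap. The means differed 6.89-fold, and the log2 fold change of 2.96 ± 0.64 (SE, n = 2 libraries a group, limma adjusted p = 0.0132) was exceeded by 3.89% of tested genes.

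Gja1 was the next most abundant. It lies on chromosome 10, 56377330 to 56402513, plus strand, with 8 annotated transcripts and no overlapping gene. Its level was 259 and 292 TPM in Itga6hi CD80pos and 53.9 and 77.2 TPM in Itga6low CD80neg, without overlap. The log2 fold change was 2.07 ± 0.42 (SE, limma adjusted p = 0.0111), and 19.0% of tested genes had a larger one. Gja1 is also a fibroblast gene, and the Itga6low CD80neg libraries were those with the high fibroblast sums given above.

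The 250 bases before the RefSeq start sites of Gja1 and Gjb2, the 2 abundant connexins that were higher together, are shown for comparison (GRCm38.p6, chr10:56377050-56377299 on the plus strand and chr14:57104703-57104952 on the minus strand). Capitals mark matches to TGANTCA, the motif of AP-1 factors, and to GGGCGG or its complement CCGCCC, the GC box, searched on both strands.
Gja1: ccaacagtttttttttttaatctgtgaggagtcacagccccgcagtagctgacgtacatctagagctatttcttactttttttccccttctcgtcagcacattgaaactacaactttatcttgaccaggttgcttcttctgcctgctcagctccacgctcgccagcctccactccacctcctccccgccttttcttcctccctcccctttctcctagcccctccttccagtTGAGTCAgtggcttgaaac
Gjb2: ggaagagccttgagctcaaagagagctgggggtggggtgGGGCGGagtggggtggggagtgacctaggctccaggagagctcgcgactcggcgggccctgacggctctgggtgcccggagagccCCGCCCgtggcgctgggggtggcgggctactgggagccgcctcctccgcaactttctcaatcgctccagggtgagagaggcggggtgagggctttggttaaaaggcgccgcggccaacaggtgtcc
The Gja1 window held 1 AP-1 match, which starts 19 bases before the RefSeq start site, and no GC box, and the Gjb2 window held 2 GC boxes and no AP-1 match. That RefSeq start of Gja1 lies before the GENCODE M21 gene start at 56377330. Of the 8 annotated Gja1 transcripts, 0 held the bases just after it, so the position relative to the start is uncertain. Of 32851 windows of this length before RefSeq starts, 6.75% held the AP-1 motif and 32.7% the GC box. The GC content was 50.0% for Gja1 and 69.2% for Gjb2, beside a median of 52.4%. The Gjb5 and Gjb6 windows held neither the AP-1 motif nor the GC box. Other motifs were searched as well. The E-box CANNTG, held by 66.2% of windows, had 1 match each in the Gja1, Gjb2 and Gjb6 windows. The TATA box TATAAA, held by 12.4% of windows, had 1 match, in the Gjb5 window. This match was to the complement TTTATA and starts 243 bases before the RefSeq start site. The ETS and TEAD motifs, held by 2.88% and 12.6% of windows, had 0 in all 4. Such matches describe the letters in these windows and show no binding.

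Gjb6 and Gjb5 were minor components. Gjb6 lies on chromosome 14, 57123303 to 57133611, minus strand, 18.6 kb from Gjb2 with 1 predicted gene between them. Its level was 32.1 and 33.7 TPM in Itga6hi CD80pos and 4.20 and 25.0 TPM in Itga6low CD80neg. The Itga6low CD80neg replicates differed from each other far more than replicate 2 did from Itga6hi CD80pos. Its log2 fold change of 1.54 ± 0.77 (SE) did not pass (limma adjusted p = 0.125), and it came to 0.38 with Itga6low CD80neg replicate 1 left out (adjusted p = 0.115) and to 2.70 without replicate 2 (adjusted p = 0.00930). In both of those fits the lone Itga6low CD80neg library is assumed to vary like the Itga6hi CD80pos pair, whose values lay close together, so the wide gap within Itga6low CD80neg does not enter their p. Gjb5 lies on chromosome 4, 127354809 to 127358181, minus strand. Its level was 8.61 and 8.22 TPM in Itga6hi CD80pos and 2.10 and 4.04 TPM in Itga6low CD80neg, without overlap. Its log2 fold change of 1.25 ± 0.35 (SE, limma adjusted p = 0.0257) was 0.02 under the median of all genes (difference of -0.02).

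The order of the levels was Gjb2, Gja1, Gjb6, Gjb5 in every library. In Itga6low CD80neg replicate 1, Gjb2 and Gja1 were nearly level, at 56.2 and 53.9 TPM, less than the spread of either gene between the replicates of that group. Over both Itga6low CD80neg libraries the ranges of Gjb2 and Gja1 overlapped, and the lowest Gjb6 value, 4.20 TPM, barely exceeded the highest Gjb5 value, 4.04 TPM. In Itga6hi CD80pos the 4 ranges were well apart.

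The calls depended on how the libraries were set on a common scale. Of all calls, 85.8% were in the higher direction on deposited TPM, and 46.0% under median-of-ratios scaling, 48.8% under quantile normalization, 41.6% with haemoglobin genes taken out of the total and 53.9% with mitochondrial, ribosomal protein, haemoglobin and keratin genes taken out. The shares of tested genes called higher were then 10.2%, 10.7%, 7.72% and 13.1%, and those called lower 11.9%, 11.3%, 10.8% and 11.2%. Gjb2 had log2 fold changes of 1.69, 1.70, 1.58 and 1.80 under those scalings in the same order, with limma adjusted p = 0.0608, 0.0351, 0.0372 and 0.0331, so its call was lost under the first. Gja1 measured 0.81, 0.75, 0.69 and 0.91, with adjusted p = 0.0930, 0.0722, 0.0948 and 0.0481, and was called under the last alone. Gjb5 measured 0.21, 0.28, 0.12 and 0.32 and Gjb6 at 0.36, 0.31, 0.26 and 0.48, and neither was called under any of the 4 (lowest adjusted p = 0.510 for Gjb5 and 0.605 for Gjb6). Relative to the median of all genes, Gjb2 was higher by 1.41 to 1.69 under the 5 scalings, deposited TPM included, and Gja1 by 0.48 to 0.81. Gjb5 stayed between -0.04 and 0.01 of that median and Gjb6 between 0.04 and 0.27. The calls of Gjb2, Gja1 and Gjb5 on deposited TPM did not hold on either Itga6hi CD80pos library alone, where the lone library is assumed to vary like the other pair, with adjusted p of 0.124, 0.126 and 0.176 without replicate 1 and 0.108, 0.129 and 0.151 without replicate 2. In those fits limma called 0 genes in the table without replicate 1, with 4442 higher and 1033 lower at an unadjusted p under 0.05, and 353 higher and 174 lower without replicate 2.

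**Figure D2:**
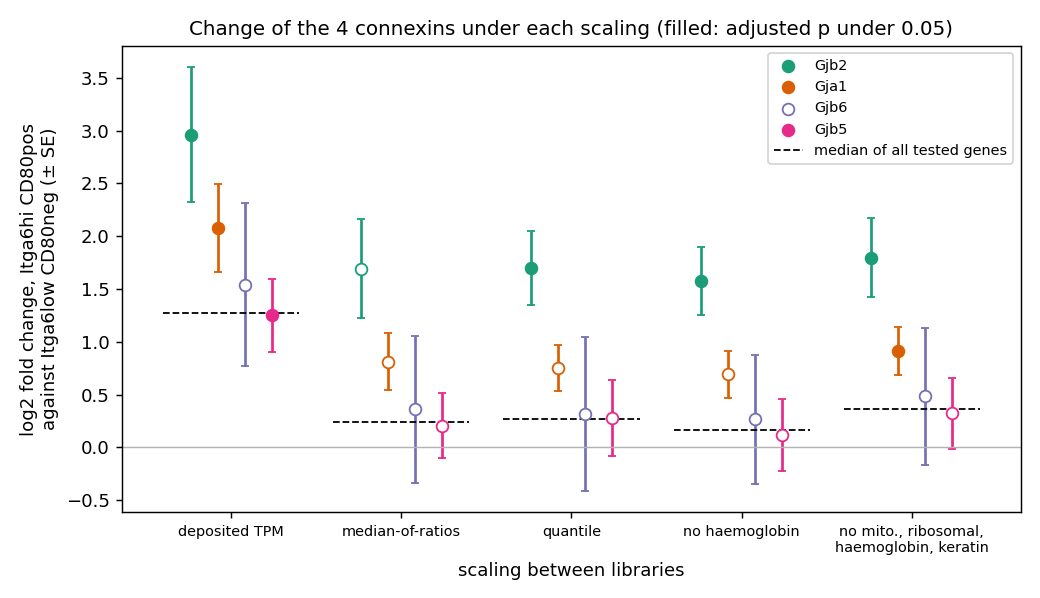
Log2 fold change (± SE) of each connexin, Itga6hi CD80pos against Itga6low CD80neg, on deposited TPM and under 4 other scalings, with filled points for an adjusted p under 0.05 and dashed lines for the median of all tested genes. Gjb2 lies above the dashed line by 1.41 or more in each column, while Gjb5 lies on it.

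The ratio of 2 connexins' TPM within a library is not changed by scaling that library by 1 factor. The log2(TPM + 1) differences used below do shift somewhat with such a factor, through the added pseudocount, and quantile normalization can change the ratios themselves. Gjb2 held a larger part of the TPM of the 4 connexins in Itga6hi CD80pos than in Itga6low CD80neg. It made up 72.2% and 68.4% of the summed TPM of the 4 connexins in Itga6hi CD80pos and 48.3% and 60.3% in Itga6low CD80neg. The TPM of Gjb2 was 3.01 and 2.47 times that of Gja1 in Itga6hi CD80pos and 1.04 and 2.09 times in Itga6low CD80neg. Against Gjb5 it was 90.5 and 87.6 times as high in Itga6hi CD80pos and 26.7 and 39.9 times in Itga6low CD80neg. Against Gjb6 it was 24.3 and 21.4 times as high, and 13.4 and 6.44 times. None of these 3 ratios overlapped between groups, and on the log2(TPM + 1) scale they differed by 0.89, 1.71 and 1.42. Only the differences against Gjb5 and Gjb6 exceeded the gap between the Itga6low CD80neg replicates, which was 0.80 and 0.82, while for Gja1 the gap was 1.00. The difference of Gjb2 over Gja1 was 0.39 with Itga6low CD80neg replicate 1 left out and 1.38 with replicate 2 left out.

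Of the remaining ratios, 1 was apart between the groups and 2 overlapped. The TPM of Gja1 was 30.1 and 35.5 times that of Gjb5 in Itga6hi CD80pos and 25.6 and 19.1 times in Itga6low CD80neg, without overlap. On the log2(TPM + 1) scale the difference was 0.82 against replicate gaps of 0.23 and 0.19. The pseudocount weighs on Gjb5, at 2.10 and 4.04 TPM in Itga6low CD80neg. For the TPM ratios themselves the log2 difference was smaller and the gap between the Itga6low CD80neg replicates wider. Gja1 over Gjb6 was 8.07 and 8.67 in Itga6hi CD80pos and lay between the 12.8 and 3.08 of Itga6low CD80neg. Gjb6 over Gjb5, at 3.73 and 4.09, likewise lay between 2.00 and 6.19. With 2 libraries against 2, the exact two-sided permutation test cannot give a p under 0.333, and it gave 0.333 for the 4 ratios without overlap and 1 for the other 2.

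**Figure D3:**
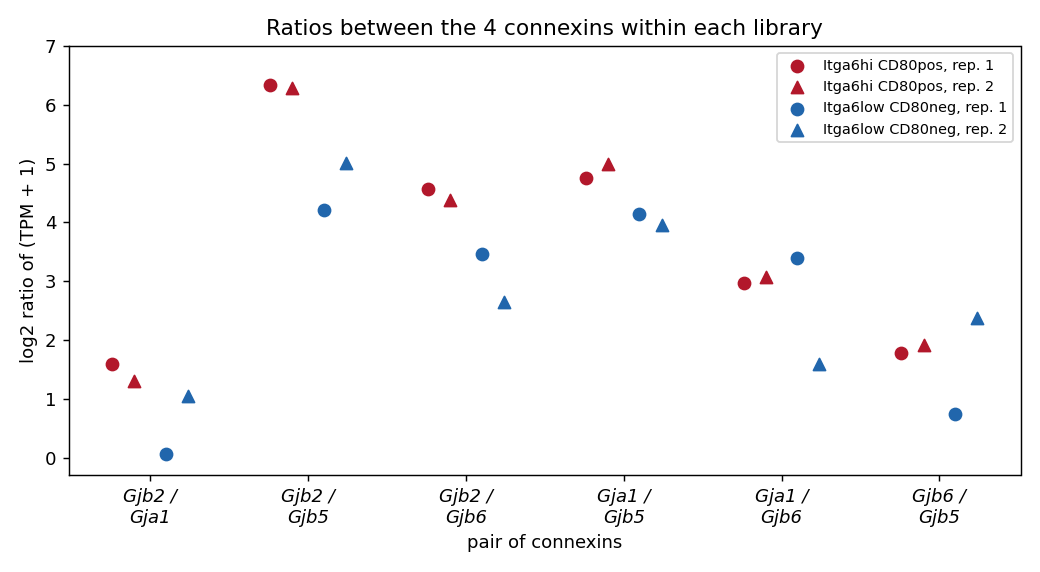
Log2 ratio of (TPM + 1) for the 6 pairs of connexins, 1 point per library, red for Itga6hi CD80pos and blue for Itga6low CD80neg. The red points lie above both blue points for the first 4 pairs and between the blue points for the last 2.

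Because epithelial RNA took such unequal parts of the libraries, each connexin was also set against the mean log2(TPM + 1) of 12 epithelial genes, such as the adherens junction cadherin Cdh1, the adhesion molecule Epcam and the desmosome plakin Dsp. This mean was 7.78 and 7.86 in Itga6hi CD80pos and 4.10 and 5.17 in Itga6low CD80neg. Gjb2 followed it: it lay 1.83 and 1.64 above the mean in Itga6hi CD80pos and 1.74 and 2.17 above it in Itga6low CD80neg, and the groups overlapped. Gja1 lay 0.24 and 0.34 above the mean in Itga6hi CD80pos and 1.68 and 1.12 above it in Itga6low CD80neg, a difference of -1.11 without overlap. Gjb6 and Gjb5 were also lower relative to these genes in Itga6hi CD80pos, by differences of -1.65 and -1.94 without overlap. The reference mean itself was higher by 3.19, beside a median log2 fold change of 1.27 over all tested genes. Every gene with a log2 fold change under the 2.96 of Gjb2, 96.1% of those tested, was thus lower on average relative to it. The exact two-sided permutation test gave 0.667 for Gjb2 and 0.333, the smallest p possible, for the other 3 genes.

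The direction of these differences turned with the keratinocyte genes chosen as the reference. Against 8 basal keratinocyte genes, such as the basal keratin Krt5 and the hemidesmosome collagen Col17a1, all 4 connexins were lower in Itga6hi CD80pos, by -2.06 for Gjb2, -2.95 for Gja1, -3.48 for Gjb6 and -3.77 for Gjb5. All 8 of these genes were called higher, beside 57.0% of all tested genes. Their median log2 fold change was 5.54, beside 6.58 for Itga6, the sorting marker. The 96.1% of tested genes under Gjb2 in log2 fold change were thus lower against this list too. Against 10 spinous and granular layer genes, such as the keratins Krt1 and Krt10, all 4 connexins were higher, by 2.19, 1.30, 0.77 and 0.48 in the same order. The 50.8% of tested genes above Gjb5 in log2 fold change were likewise higher against that list. Against 8 wound keratinocyte genes, such as Krt6a and Krt16, the differences were 1.42, 0.53, -0.00043 and -0.29. The last 2 references were chosen after seeing the data, and all of these differences are values without a test.

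**Figure D4:**
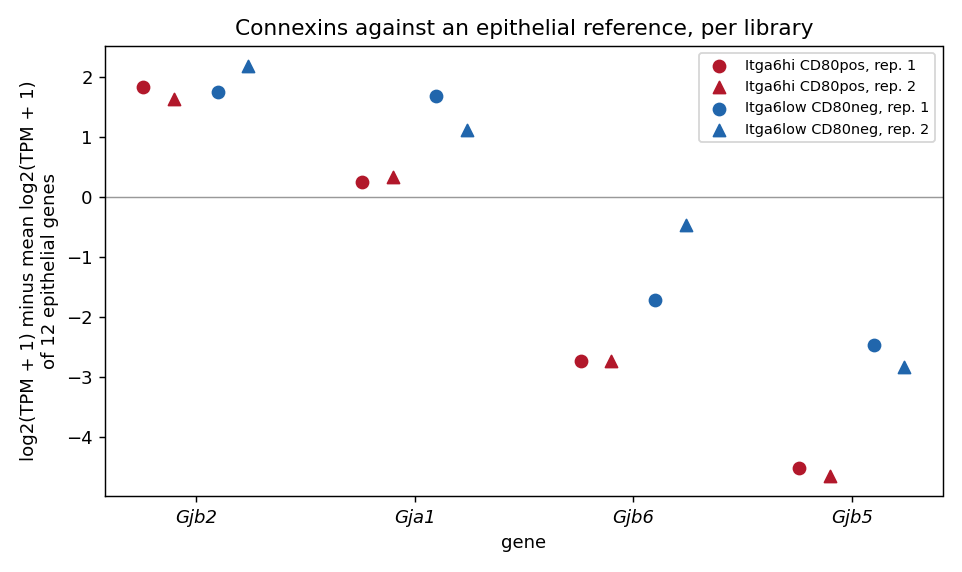
Log2(TPM + 1) of each connexin minus the mean log2(TPM + 1) of 12 epithelial genes, 1 point per library. Red and blue points are mixed for Gjb2, and the red points (Itga6hi CD80pos) lie below the blue ones (Itga6low CD80neg) for Gja1, Gjb6 and Gjb5.

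Of 14 further connexins used here, 3 passed the filter of at least 1 TPM in at least 2 libraries, and 0 of the 3 were called higher and 1 lower by limma on deposited TPM (0 higher and 1 lower at an unadjusted p under 0.05), beside 57.0% and 9.48% of all genes. Gjc1 (Cx45), a connexin of smooth muscle, mural and cardiac cells, was the one called lower. It measured 0.111 and 0.173 TPM in Itga6hi CD80pos and 4.91 and 4.97 TPM in Itga6low CD80neg (log2 fold change -2.38 ± 0.26, SE, limma adjusted p = 0.00428), and was called under all 5 scalings. Its call was lost without Itga6hi CD80pos replicate 1 (limma adjusted p = 0.0644) and without its replicate 2 (0.0543), at log2 fold changes of -2.34 and -2.42. With the filter applied again to the 3 libraries left, it was called in both cases (0.00382 and 0.00211). All 15 fibroblast genes were lower too, as were 2 mural genes, Rgs5, at 0.522 and 1.20 TPM versus 6.38 and 8.63 TPM, and Myh11, the smooth muscle myosin, at 0.0376 and 0.0694 TPM versus 5.19 and 2.92 TPM, both called under all 5 scalings. Of 7 endothelial and mural genes tested these were the 2 called lower, and 3 were called higher. The summed level of that list, 48.6 and 43.4 TPM versus 28.6 and 20.8 TPM, came mostly from Notch3 in Itga6hi CD80pos, at 29.0 and 16.8 TPM versus 4.80 and 1.39 TPM, and from Egfl7, at 10.4 and 9.95 TPM versus 0.873 and 1.47 TPM. Rgs5, Myh11, Notch3 and Egfl7 were named after their values were seen. The part of these cell types in the Gjc1 result was not tested. Gja4 (Cx37), a connexin of arterial endothelium, measured 0.836 and 0.595 TPM versus 1.09 and 1.10 TPM (limma adjusted p = 0.349). Gjb1 (Cx32), the connexin of liver and Schwann cells, measured 0.468 and 1.38 TPM versus 0.256 and 2.31 TPM (0.848). Gjd3 was listed at 0.943 and 0.741 TPM versus 0 and 1.25 TPM and was under the filter. The rest of these 14 stayed under 1 TPM in every library.

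Pannexins form channels of a like shape that open to the outside of the cell and release ATP. Of 3 pannexins, only Panx1 passed the filter, at 25.5 and 36.6 TPM in Itga6hi CD80pos and 5.13 and 11.7 TPM in Itga6low CD80neg. Its log2 fold change was 1.84 ± 0.46 (SE, limma adjusted p = 0.0189), a call made on deposited TPM and under none of the other 4 scalings.

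Genes whose products bind, anchor, sort or phosphorylate connexins, listed together with adherens junction cadherins, were mostly higher on deposited TPM. Of 29 tested, 24 were called higher and 2 lower, beside 57.0% and 9.48% of all genes. Their median log2 fold change was 1.93, beside 1.27 for all genes. Under median-of-ratios scaling 7 were higher and 2 lower, beside 10.2% and 11.9%. Under the original filter limma called 0 of them without Itga6hi CD80pos replicate 1, where it called 0 genes of the whole table, and Ccn3 alone without its replicate 2. Cdh3, the P-cadherin of basal keratinocytes, measured 47.2 and 55.6 TPM versus 2.03 and 3.96 TPM (log2 fold change 3.75), and Cdh1, the E-cadherin, at 94.9 and 84.0 TPM versus 4.68 and 16.7 TPM (3.17). Ezr, the membrane-to-actin linker ezrin, measured 313 and 234 TPM versus 20.5 and 44.1 TPM (3.12), and Cav2, a caveolin, at 60.2 and 69.4 TPM versus 2.89 and 10.4 TPM (3.30). All 4 were called higher, as were 15 of 18 epithelial genes, Cdh1 among them. Cdh3 and Ezr were called under all 5 scalings. Cdh1 and Cav2 were called under 4 of the 5, and not under quantile normalization (limma adjusted p = 0.0609 and 0.0570). The 2 lower genes encode partners of Cx43: Ccn3, a matricellular protein, measured 0.0281 and 0.0992 TPM versus 43.7 and 41.3 TPM (-5.35), and Dbn1, the actin-binding protein drebrin, at 3.34 and 2.30 TPM versus 19.6 and 15.1 TPM (-2.27). Both were called lower in Itga6hi CD80pos under all 5 scalings, and were thus higher in the libraries with the high fibroblast sums. The part of fibroblast RNA in this was not tested.

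Genes that receive or break down the ATP released through such channels went both ways, with 3 of 7 tested called higher and 3 lower, beside 57.0% and 9.48% of all genes. P2ry1, an ADP receptor, was higher at 32.2 and 27.9 TPM versus 1.43 and 3.45 TPM, and was called under all 5 scalings. Nt5e, which turns AMP into adenosine, measured 10.9 and 20.2 TPM versus 1.89 and 3.03 TPM, and P2ry2, an ATP and UTP receptor, at 4.72 and 7.68 TPM versus 1.79 and 1.28 TPM, both called on deposited TPM alone. The ATP-degrading enzymes Entpd2, at 3.71 and 4.14 TPM versus 37.3 and 19.7 TPM, and Entpd1, at 0.790 and 0.706 TPM versus 8.82 and 8.94 TPM, were lower under all 5 scalings. So was P2rx4, an ATP-gated channel, at 10.9 and 9.64 TPM versus 24.4 and 18.4 TPM. With the original filter all 6 calls were lost whichever Itga6hi CD80pos library was removed. With the filter applied again to the 3 libraries left, P2ry1, Nt5e, Entpd1 and Entpd2 were called in both cases (highest limma adjusted p = 0.0192, for Nt5e), P2ry2 only without replicate 1 (0.0273, and 0.128 without replicate 2), and P2rx4 in neither (0.270 and 0.339).

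The genes whose profile over the 4 libraries was nearest to each connexin were found by the root mean square difference of centred log2(TPM + 1), a likeness that rests on only 4 points. Nearest to Gja1 were Adat2, a tRNA deaminase subunit, Ctnna1, the alpha-catenin of adherens junctions, and Klf3, a transcription factor, at differences of 0.0116 to 0.0252. Nearest to Gjb2 were Plpp2, a lipid phosphatase, and the alpha-tubulin genes Tuba4a and Tuba1c, at 0.0220 to 0.0395; reads shared among tubulin genes were not resolved here. Nearest to Gjb5 were Fastkd5, Rnf181 and Bcap31, at 0.0143 to 0.0174. Nearest to Gjb6 were Tmem154, Elovl7 and Stk26, at 0.0769 to 0.112, farther off than the nearest genes of the other 3 connexins. Tmem154 measured 22.5 and 25.5 TPM versus 2.52 and 16.3 TPM, with a wide gap between the Itga6low CD80neg replicates, as for Gjb6.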

How the data were processed

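Gene-level TPM of 4 libraries were used, 2 for each population. The TPM values were made and deposited by the authors, with kallisto 0.44.0 and mm10 per the submitters' processing notes; annotation, summing to genes and filters are not given in the sources used here. Each column sums to 1000000, so depth and counting error are unknown.

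Genes reaching 1 TPM in 2 or more libraries entered the test, made on log2(TPM + 1) with limma 3.58.1 in R 4.3.3 (lmFit, eBayes with trend, two-sided, Benjamini-Hochberg over all tested genes, threshold 0.05). A fold change on this scale understates the change of low genes. The script was tested on simulated data. Ratios and references were compared with exact permutation tests in scipy 1.17.1. Alternatives were pseudocounts of 0.1 and 5, other filters, 4 scalings, no trend, a replicate block and leaving out each library.

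Beyond the 4 connexins, Itga6 and Cd80, the genes named were other connexins and pannexins reaching 1 TPM, up to 4 called genes per partner list and direction, and the 3 genes nearest each connexin. Some genes given by this rule are not reported here. The members and lists were chosen with earlier results of these data known. Of the sequence runs of 31 bases in their GENCODE M21 transcripts, Gjb2, Gjb5 and Gjb6 shared 0 with other genes and Gja1 shared 130 of 10363 (1.25%). P2ry11 and Ahsp were not used here. A planned comparison of protein sequences was not made.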

Additional observations from a re-analysis of the deposited data

How the results depend on the processing

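Fits on all 4 libraries rest on 2 per group and, without the replicate block, on 2 residual degrees of freedom. In the main fit limma added prior degrees of freedom with a median of 3.33. Fits with 1 library left out had 1 residual degree of freedom. Genes called higher numbered 7686 in the main comparison, 4564 with no filter on low values, 1372 under median-of-ratios scaling, 1448 under quantile normalization, 1040 without haemoglobin genes, 1740 without mitochondrial, ribosomal protein, haemoglobin and keratin genes and 0 to 8227 when 1 library was left out. Genes called lower numbered 1277, 613 with a mean of at least 5 TPM, and 0 to 1237 when 1 library was left out. Median-of-ratios scaling over the 9608 genes of at least 1 TPM in every library, chosen after seeing the data, gave 839 higher, with log2 fold changes of 1.39 for Gjb2 (adjusted p = 0.0932), 0.51 for Gja1 (0.231), 0.073 for Gjb6 and -0.046 for Gjb5, which thus turned direction.

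Calls were lost for Gja1 under median-of-ratios scaling (0.81), quantile normalization (0.75) and without haemoglobin genes (0.69), and for Gjb2 under median-of-ratios scaling (1.69). With no filter on low values, which tests 30663 genes, Gjb2 (2.96, adjusted p = 0.0563) and Gjb5 (1.25, 0.0842) lost theirs at the same fold change. Gjb5 also lost its call under median-of-ratios scaling (0.21), quantile normalization (0.28), without haemoglobin genes (0.12) and without mitochondrial, ribosomal protein, haemoglobin and keratin genes (0.32). With 1 library left out the log2 fold changes ran from 1.82 to 2.33 for Gja1, 2.21 to 3.71 for Gjb2, 0.90 to 1.60 for Gjb5 and 0.38 to 2.70 for Gjb6. Applying the filter again to the 3 libraries left, chosen after seeing the data, gave 2947 genes higher and 813 lower without Itga6hi CD80pos replicate 1, 3762 higher and 931 lower without its replicate 2, 453 lower with Itga6low CD80neg replicate 1 left out and 455 lower with replicate 2 left out. Prior degrees of freedom were infinite in the first and second of these fits, so each gene took the spread of the trend. Gja1 (2.16 and 1.99), Gjb2 (2.91 and 3.02) and Gjb5 (1.22 and 1.28) still lost their calls in both, with adjusted p from 0.0508 for Gjb2 to 0.142 for Gja1. Of the 28 named genes called on all 4 libraries, 0 and 2 were still called without Itga6hi CD80pos replicate 1 and replicate 2 under the original filter, and 17 and 16 of the 27 tested under the repeated one. Gjb6 was called with Itga6low CD80neg replicate 2 left out (2.70, adjusted p = 0.00309). Beyond what stands above, the causes were not tested. Of genes near Gjb5 in profile, Rnf181 turned to -0.10 under quantile normalization, -0.066 without haemoglobin genes and -0.24 under the added median-of-ratios scaling, and Bcap31 to -0.0094 under median-of-ratios scaling, -0.092 under quantile normalization, -0.13 without haemoglobin genes and -0.31 under the added scaling.

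The ratio of Gjb2 to Gjb5 differed by 2.16 with a pseudocount of 5, and that of Gja1 to Gjb5 by 0.60 and 1.27 with pseudocounts of 0.1 and 5. With 1 library left out the differences ran from 0.39 to 1.38 for Gjb2 over Gja1, 1.31 to 2.11 for Gjb2 over Gjb5, 1.01 to 1.83 for Gjb2 over Gjb6 and 0.71 to 0.94 for Gja1 over Gjb5, and changed sign for Gja1 over Gjb6 (-0.37 to 1.44) and Gjb6 over Gjb5 (-0.52 to 1.10). Against the epithelial reference a pseudocount of 5 gave -0.82 for Gja1 and 0.070 for Gjb2, and leaving out 1 library gave -1.39 to -0.83 for Gja1, -0.44 to -0.0087 for Gjb2, -2.12 to -1.75 for Gjb5 and -2.27 to -1.02 for Gjb6. With Cdh1 and Epcam alone as reference the differences were -1.52 for Gja1, -0.63 for Gjb2 and -2.34 for Gjb5. With the basal list they were -2.95, -2.06, -3.77 and, for Gjb6, -3.48. With the spinous and granular list they were 1.30, 2.19, 0.48 and 0.77, and with the wound list 0.53, 1.42, -0.29 and -0.00043.

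The replicate numbers were not shown to pair the libraries, with 2 pairs and a correlation of same-numbered deviations of 0.11. The fit with the replicate block called 8044 genes higher and 1452 lower and called Gjb6 (1.54, adjusted p = 0.00678), with 1 residual degree of freedom and an infinite prior, so that each gene took the spread of the trend. No member's symbol was repeated, so summing rows was not run.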
